A study of Mus musculus with 4 samples.

Results

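The carriers described here move zinc, iron, copper and manganese across membranes, and one further family taken in by the same name pattern, Slc41, moves magnesium. They are the protein-coding genes of the Slc11, Slc30, Slc31, Slc39, Slc40 and Slc41 families, 31 of the 360 protein-coding solute carrier (Slc) genes and of the 26822 genes in the table. RNA-seq was performed on endothelial cells (ECs) sorted from the retinas of C57BL/6J pups at postnatal day 6 (P6), as viable cells positive for CD31 and negative for CD45. There were 4 libraries, all of 1 group that the labels give as control, so no condition was compared and each result is a comparison between genes or between libraries. The study calls the libraries independent samples, but the labels do not say that they came from separate animals, so p-values measure the spread between these libraries. Slc30a8, which loads zinc into insulin granules, was not analysed here.

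Metal ions cannot cross a lipid membrane unaided, and each cell balances them with carriers that face opposite ways. Slc39 (ZIP) proteins bring zinc, and in some cases iron and manganese, into the cytosol from outside or from compartments, whereas Slc30 (ZnT) proteins carry zinc out of the cytosol to the outside or into compartments. Slc40a1 (ferroportin) exports iron, Slc11a2 (DMT1) moves iron out of endosomes, and Slc31a1 (CTR1) takes up copper. Retinal ECs form the inner blood-retinal barrier, so metals bound for the neural retina from these vessels pass through them.

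The authors' values are normalised read counts per gene, rounded to whole numbers. Levels of different genes were compared after division by the length of the gene's exons, as a normalised read count per kb, here called the level per kb. The genes of each further list were chosen by their mean value as deposited, which is not scaled by length and gives no order of levels. Library totals lay between 14843847 and 15017241. Endothelial markers were high in every library, with 8 of 8 detected (a mean of at least 10 over the libraries) and a summed value of 43362 in library 4, against 44020 to 44688 in libraries 1 to 3. Library 4 stood apart from the others: its log2 values correlated with theirs at Pearson's r of 0.960 to 0.965, against 0.970 to 0.974 among libraries 1 to 3. The summed value of 8 photoreceptor markers, all detected, was 13337 in library 4, against 4567 to 5799 in libraries 1 to 3. Library 4 was also highest in markers of pericytes and smooth muscle (3649, against 521 to 2161). The same held for Mueller glia and progenitors (5426, against 3851 to 4662), other neurons (4823, against 3837 to 3928) and pigment epithelium (767, against 386 to 668). The neuron sum rested on few genes, with 3 of 8 detected. Rbpms had 3430, 3331, 3425 and 3638 in libraries 1 to 4, and Snap25 had 397, 560, 395 and 1162. Of the pigment epithelium markers 3 of 6 were detected. The largest, Rlbp1 (636, 540, 332 and 628), is also in the Mueller list. Of that list 6 of 8 markers were highest in library 4, but Glul, its largest, had 1972, 1879, 1796 and 1801. Astrocyte and erythroid sums in library 4 lay within the range of the others. Leukocyte markers summed to 16 in library 4, against 25 to 119 in the others, and 3 of 8 were detected. In RNA from a sorted population, fewer cells of a type and less RNA per cell cannot be told apart.

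Iron carriers are controlled in part through short hairpins in their transcripts, the iron responsive elements, which the iron regulatory proteins bind. A search of annotated untranslated regions for this hairpin, with the loop CAGTGN, a 5-base paired stem below it, an unpaired C and a lower stem with at most 1 mismatch, found it in 14 of 17459 coding genes (0.0802%). Of the 31 carriers, 1 had a match to this pattern: Slc40a1, in the 5′ untranslated region on the minus strand of chr1:45925466-45925492 (GRCm38). The search allowed no mismatch or bulge in the upper stem and covered only transcripts of the basic annotation set. An element of another form would be missed, so a carrier without a match, such as Slc11a2, may still hold one. It is shown with the matches in the ferritin genes Fth1 (chr19:9982733-9982759, plus strand) and Ftl1 (chr7:45459780-45459806, minus strand), also 5′, and with 1 of the 4 in the 3′ untranslated region of the transferrin receptor gene Tfrc (chr16:32631220-32631246, plus strand), because these are the genes of iron export, storage and uptake whose levels are set side by side here. Capitals mark the loop.
Slc40a1: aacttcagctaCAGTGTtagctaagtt
Fth1: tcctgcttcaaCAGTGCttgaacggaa
Ftl1: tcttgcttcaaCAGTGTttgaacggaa
Tfrc: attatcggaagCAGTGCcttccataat

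The Slc40a1 hairpin had all pairs of its lower stem, as did the Tfrc one, and each ferritin hairpin had 1 mismatch there. A match is a description of these letters and no measurement of binding.

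Some zinc genes carry another short signal, the metal response element, which the zinc-sensing factor Mtf1 recognises. The letters TGCACNC or TGCGCNC, on either strand, were present in 16 of 31 RefSeq promoter windows of the carriers (51.6%, from 26 carriers with a window), against 25.7% of all 32851 windows of the same span, 250 bases before to 50 after the start (GRCm38.p6). These windows pool carriers of all the metals, and the base composition of the windows was not considered. A match is a description of letters and no measurement of a working element. Zinc carriers such as Slc39a10 and Slc30a7 had no match, whereas the magnesium carrier Slc41a1 had one. The 2 matches of Slc30a1, the exporter at the cell surface, are shown with capitals marking the element on the opposite strand.
Slc30a1, chr1:191906728-191906754, plus strand: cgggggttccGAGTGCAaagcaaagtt
Slc30a1, chr1:191906801-191906827, plus strand: cctccgggccGAGCGCAgtcgccgcgg

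RNA of most of the metal carriers was present in the libraries of sorted P6 retinal ECs. Detected were 25 of 31 (80.6%), against 67.2% of all solute carrier genes, 74.8% of protein-coding genes and 56.0% of all genes. The same minimum was passed by 8 of 8 markers each of photoreceptors, of pericytes and of Mueller glia. Detection alone therefore does not place the RNA of a carrier in ECs. A mean of at least 1000 was reached by 17 of 31 carriers (54.8%), against 30.3% of protein-coding genes and 19.7% of all genes. The median level per kb of the detected carriers was 309, or 8.27 ± 0.08 on the log2 scale (SD over libraries, n = 4), against 198 per kb for the other detected solute carriers, 220 for detected protein-coding genes and 161 for all detected genes. The plot of values by library shows every member, grouped by what it carries.

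**Figure D1:**
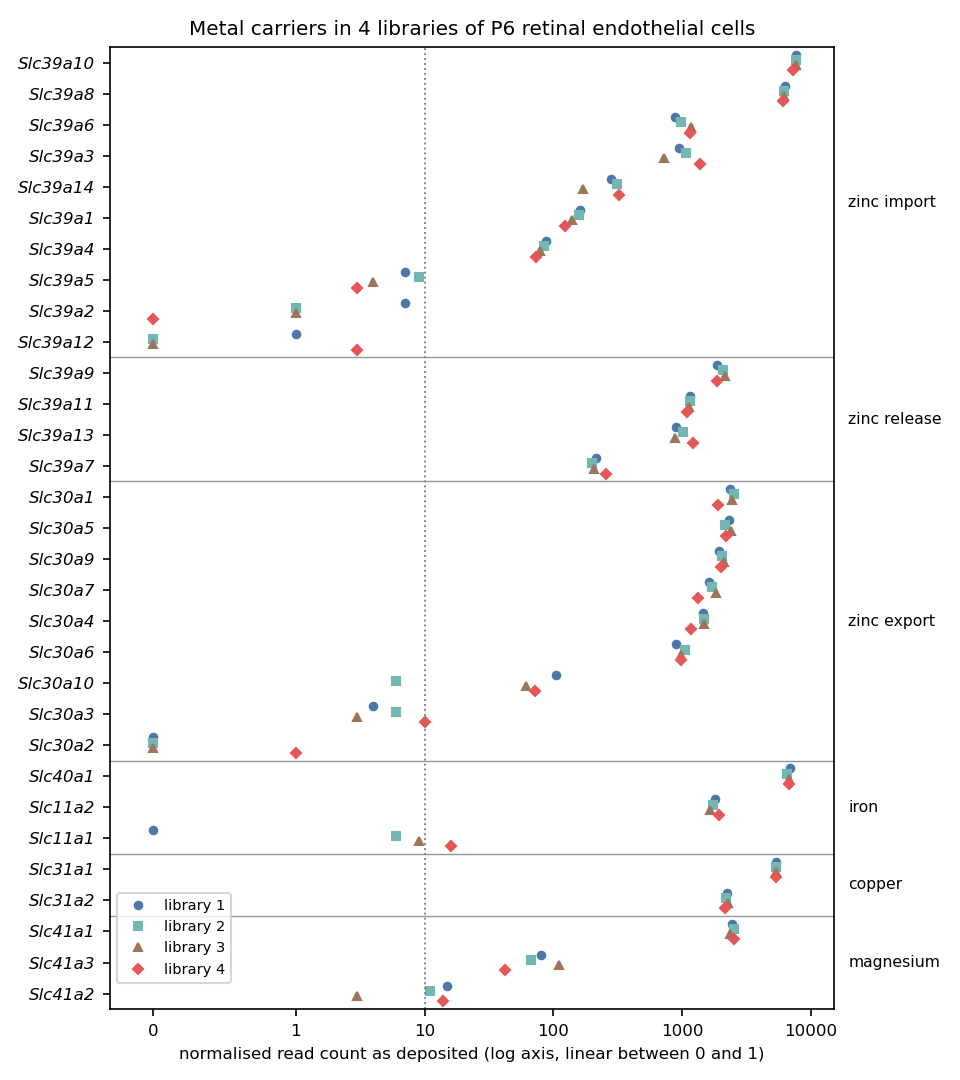
Normalised read counts as deposited (log axis, linear between 0 and 1) of the 31 carriers in each of the 4 libraries, with the detection minimum of 10 as a dotted line and roles named at the right. In 17 carriers the mean is at least 1000, and in 6 it is under 10.

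The transcript of the iron exporter led the whole set by level per kb of exons, but not by every measure. Per kb of coding length Slc31a1 (9086), Slc31a2 (5133) and Slc39a8 (4456) lay above Slc40a1 (3924), and in values as deposited Slc39a10 (mean 7545) lay above it (mean 6710). Slc40a1, which exports iron from the cell, had values of 6861, 6558, 6693 and 6728 in libraries 1 to 4, and its level of 1991 ± 37.0 per kb (SD, n = 4) was exceeded by 11 genes of the table. It was the first of the detected solute carriers by level per kb of exons. Levels at the top of the table were crowded, with a 99th percentile of 1546 per kb and a highest gene at 2854. Slc11a2, the carrier that releases iron from endosomes into the cytosol, had values of 1791, 1740, 1630 and 1929 and a level of 309 per kb. Slc40a1 was therefore above Slc11a2 by 2.69 ± 0.10 in log2 level per kb (6.45-fold, SD over libraries, n = 4), and higher in 4 of 4 libraries. Slc11a1, the divalent metal carrier of macrophage phagosomes, had values of 0, 6, 9 and 16 in libraries 1 to 4 and was not detected by its mean of 7.75.

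Other genes of iron handling were read from a fixed list. Against 74.8% and 30.3% of protein-coding genes, 28 of these 35 were detected and 13 had means of 1000 or more. The 4 with the highest mean values as deposited were Tfrc, the receptor that takes up transferrin-bound iron (7602), Flvcr2, a choline carrier once studied for haem (4169), Trf, which encodes transferrin (4116), and Pcbp1, an iron chaperone (2710). Slc40a1 stood above Tfrc by 0.45 ± 0.08 in log2 level per kb (1.36-fold, n = 4), but in values as deposited Tfrc was higher, with a log2 difference of -0.18. The order of iron export and iron uptake transcripts depended on the division by length. The storage gene Fth1 had 1083 per kb and Ftl1 had 391 per kb. Hamp, the hormone that binds ferroportin, had values of 0, 0, 0 and 6, and Hephl1 and Scara5 had means of 0.25 and 0. Heph, the oxidase that works beside ferroportin in gut cells, was detected with a mean of 679.5, and Cp, its plasma relative, with 651.75.

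Among the zinc importers, most of the summed transcript level per kb came from a pair of genes. Slc39a8 (ZIP8), which takes up zinc, manganese and iron, had values of 6310, 6155, 6194 and 6046 in libraries 1 to 4 and a level of 1518 ± 26.8 per kb. Slc39a10 (ZIP10), a zinc importer of the surface membrane, had values of 7674, 7676, 7645 and 7185 and a level of 1372 ± 43.7 per kb (SD, n = 4 each). Both were steady between libraries, apart from the lower value of Slc39a10 in library 4. Such small spread was common among genes of high level. Together Slc39a8 and Slc39a10 held 80.8 ± 2.2% (SD, n = 4) of the summed level per kb of the 10 import carriers. The share was 77.8% in library 4 and 80.7 to 82.6% in the others.

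Slc39a8 exceeded Slc39a10 by 0.15 ± 0.03 in log2 level per kb, but in values as deposited Slc39a10 was higher, with a log2 difference of -0.29. Slc39a6 (ZIP6), which forms a complex with Slc39a10, had values of 876, 980, 1163 and 1153 and a level of 269 per kb. Slc39a10 stood above this partner by 2.36 ± 0.23 in log2 level per kb (5.14-fold). The closest relative of Slc39a8 by what it carries, Slc39a14 (ZIP14), which also takes up iron and manganese, had values of 281, 311, 169 and 320. Its level of 51.9 per kb was under that of Slc39a8, whose excess was 4.91 ± 0.44 in log2 level per kb (30.0-fold, higher in 4 of 4 libraries).

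Among the remaining importers, levels spread widely. Slc39a1, a zinc importer found in many cell types, had values of 162, 157, 140 and 122 and a level of 61.4 per kb. Slc39a3, its close relative, had values of 944, 1074, 723 and 1365 and 270 per kb. Slc39a1 was lower than Slc39a3, with a log2 difference in level per kb of -2.10 ± 0.49. Slc39a4, the importer of dietary zinc in the gut, had values of 87, 84, 78 and 73. Under the minimum were Slc39a5, an importer of gut and pancreas, with values of 3 to 9, Slc39a2, known from skin, with 0 to 7, and Slc39a12, known from brain, with 0 to 3. In all, 7 of 10 import carriers were detected and 4 had means of 1000 or more, against 74.8% and 30.3% of protein-coding genes.

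All 4 carriers that release zinc from compartments were detected, against 74.8% of protein-coding genes. Slc39a11, found at the Golgi and nucleus, had values of 1149, 1149, 1119 and 1085 and 402 per kb. Slc39a13, a Golgi and vesicle carrier needed for connective tissue, had values of 894, 1014, 886 and 1209 and 399 per kb. These levels per kb overlapped between libraries. Slc39a9, a Golgi carrier, had values of 1876, 2087, 2132 and 1873 and 299.5 per kb. It was lower than Slc39a11 by the length-scaled measure, with a log2 difference of -0.43 ± 0.10, and higher in values as deposited, with 0.82.

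Slc39a7, the carrier that frees zinc from the endoplasmic reticulum, had values of 213, 198, 205 and 258 and 92.5 per kb. Its log2 difference in level per kb from Slc39a13 was -2.10 ± 0.13. The Slc39a7 value is uncertain, because another annotated gene, Gm20427, covers 80.7% of its exonic bases on the same strand and had a mean of 6.25, and how reads in both genes were counted is not given in the sources used here. Slc39a13 shares 4.42% of its exonic bases with Psmc3 on the other strand, which had a mean of 2483. The kit named in the labels keeps the strand, but the extract protocol is written for human umbilical vein ECs (HUVECs). Whether counting used the strand is not stated.

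Transcripts for export and loading of compartments were spread over more genes than those for import. Detected were 7 of 9 Slc30 carriers, 5 of them with means of 1000 or more, against 74.8% and 30.3% of protein-coding genes. Slc30a5, which loads zinc into the early secretory pathway as a complex with Slc30a6, had values of 2308, 2151, 2379 and 2168 and the highest level of the family per kb of exons, 708 ± 34.7. Per kb of coding length Slc30a1 (1523), Slc30a7 (1427), Slc30a9 (1184) and Slc30a4 (1082) lay above Slc30a5 (986), and in values as deposited Slc30a1 (mean 2298) lay above it (mean 2251.5). Slc30a6 had values of 888, 1051, 981 and 971 and 449.7 per kb. Slc30a5 exceeded this partner by 0.66 ± 0.15 in log2 level per kb (1.58-fold, higher in 4 of 4 libraries). Slc30a1, which exports zinc across the surface membrane, had values of 2327, 2542, 2426 and 1896 and 438 ± 53.8 per kb. These 3 genes held 66.6 ± 0.5% of the family's summed level per kb of exons (SD, n = 4). That share was computed with exonic length only, and the order of these genes in the family changed with coding length.

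The surface importer Slc39a10 stood above the surface exporter Slc30a1 by 1.65 ± 0.14 in log2 level per kb (3.15-fold, n = 4). With coding length this difference was 1.00. Slc30a9, a mitochondrial zinc exporter, had values of 1934, 2020, 2092 and 2009, a level of 353 per kb and no sample that stood apart. Slc30a4, an endosomal and vesicular carrier, had values of 1447, 1475, 1488 and 1175. Slc30a7, a Golgi carrier that acts with itself rather than with Slc30a6, had values of 1617, 1703, 1819 and 1332 and 179 per kb. It was lower than Slc30a5 by the length-scaled measure (log2 difference -1.99 ± 0.16), and Slc30a9 was higher than Slc30a7 (0.98 ± 0.18). Both orders turned when coding length replaced exonic length, with log2 differences of 0.52 and -0.26, and Slc30a7 has 9020 exonic bases and 1134 coding ones. Slc30a1, Slc30a4 and Slc30a7 each had their lowest value in library 4.

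Slc30a10, which in mammals exports manganese rather than zinc, had values of 105, 6, 61 and 72 in libraries 1 to 4. Slc30a1 stood above it by 5.89 ± 1.88 in log2 level per kb (59.4-fold), and by 4.61 to 5.45 in the 3 libraries other than library 2, where the difference was 8.66. Library 2 was also lowest in the summed markers of pericytes (521, against 1968 to 3649 in the others), astrocytes (152, against 390 to 691) and erythroid cells (249, against 394 to 826), and their part in the Slc30a10 value was not tested. Slc30a2, known from mammary vesicles, was listed at 0 in 3 libraries and at 1 in library 4. Slc30a3, the carrier of synaptic vesicles, had values of 3 to 10.

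Metallothioneins were low or under the minimum beside these carriers. Of 7 genes of the fixed zinc list in the table, 4 were detected: Trpm7, a channel for magnesium and zinc (mean 2562), Mtf1, the zinc-sensing factor (712), Tmem163, a vesicular zinc carrier (42.75), and Mt1, a metallothionein that binds zinc and copper (35.5). Mt2, the second metallothionein of most cells, had values of 1, 0, 2 and 2. Mt3 and Mt4 were also under the minimum, which 74.8% of protein-coding genes passed.

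Transcripts of the copper carriers were high and steady. Slc31a1, the high-affinity importer at the surface, had values of 5390, 5343, 5364 and 5310 in libraries 1 to 4, a coefficient of variation of 0.632%, the lowest of the 25 detected carriers. Small spread was common among genes of high level, with a median coefficient of variation of 1.53% in the top 1% by level per kb. Between the 40th and 60th percentiles the median was 10.3%. Slc31a2 (CTR2), which moves copper out of vesicles, had values of 2221, 2190, 2261 and 2136. Per kb the levels were 1250 ± 7.9 for Slc31a1 and 1083 ± 25.9 for Slc31a2, a log2 difference of 0.21 ± 0.03 that held its sign in 4 of 4 libraries. Slc31a1 stood above Atp7a, the pump that exports copper and loads copper enzymes, by 1.44 ± 0.27 in log2 level per kb (2.71-fold). The size of this difference depended on the length used, and with coding length it was 4.17. Of the copper list, 13 of 15 genes in the table were detected, against 74.8% of protein-coding genes. The highest mean values as deposited were those of Atp7a (2293), the copper-zinc superoxide dismutase Sod1 (937.5), the chaperone Atox1 (759.5) and the chaperone Ccs (688). Per kb of exons the order was another, with 1463 for Sod1, 1404 for Atox1, 645 for Ccs and 467 for Atp7a. Atp7b, the related pump of liver, had values of 7, 13, 45 and 0.

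Of the carriers described above, Slc39a8, Slc39a14 and Slc11a2 can take up manganese and Slc30a10 exports it. Against 74.8% and 30.3% of protein-coding genes, all 5 other genes of a fixed manganese list were detected and had means above 1000. The 4 with the highest mean values as deposited were Atp2c1, the calcium and manganese pump of the Golgi (4824), Atp13a1, an endoplasmic reticulum pump (3569), its lysosomal relative Atp13a2 (2829) and Tmem165, which supplies the Golgi with manganese (2705). Per kb of exons Tmem165 had 1426, Atp13a1 911, Atp2c1 774 and Atp13a2 715.

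The magnesium carriers were led by 1 gene. Slc41a1, which moves magnesium at the surface membrane, had values of 2429, 2514, 2357 and 2523 and 523 ± 16.7 per kb. Slc41a3, a mitochondrial carrier, had values of 80, 67, 111 and 42, and Slc41a2 had 15, 11, 3 and 14. Slc41a1 exceeded Slc41a3 by 4.41 ± 0.62 (21.2-fold) and Slc41a2 by 7.90 ± 0.90 in log2 level per kb. The mean of Slc41a2 was 10.75, just over the detection minimum, and without library 4 it was 9.67 and the count of detected carriers was 24. Of 13 other magnesium genes, 12 were detected, against 74.8% of protein-coding genes. By mean value as deposited the highest were Trpm7 (2562), Magt1, a magnesium carrier and oligosaccharyltransferase subunit (2494), Mmgt1 (1713) and Cnnm3 (1358). Per kb of exons the highest was Tusc3, a relative of Magt1, with 757, and Magt1 had 550.5, Mmgt1 405, Trpm7 361 and Cnnm3 257.

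Across the set, levels per kb fell into a leading group and a long tail. The 5 highest were Slc40a1, Slc39a8, Slc39a10, Slc31a1 and Slc31a2, between 1083 and 1991 per kb, and all 5 lay above the 90th percentile of detected genes (854). Next were Slc30a5 and Slc41a1, and a cluster of 10 carriers from Slc30a6 (449.7) to Slc30a4 (255). Then came Slc30a7, Slc39a7, Slc39a1, Slc39a14, Slc39a4, Slc41a3, Slc30a10 and Slc41a2 (2.27). Of the 24 neighbours in this order, 12 did not overlap between libraries and 12 did. The first 7 steps did not overlap, and in the cluster neighbours overlapped from Slc30a6 to Slc30a9 and again from Slc11a2 to Slc30a4, while Slc30a9 stood above Slc11a2 in every library. Values per kb were crowded at the top of the whole table: the 99th percentile was 1546 and the highest gene, Lrp8, had 2854. Genes in the top 1% had a median coefficient of variation of 1.53%, against 10.3% for genes between the 40th and 60th percentiles. Whether this crowding narrows the differences among the 5 leading carriers, or alters their folds over lower carriers and their shares, was not tested.

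**Figure D2:**
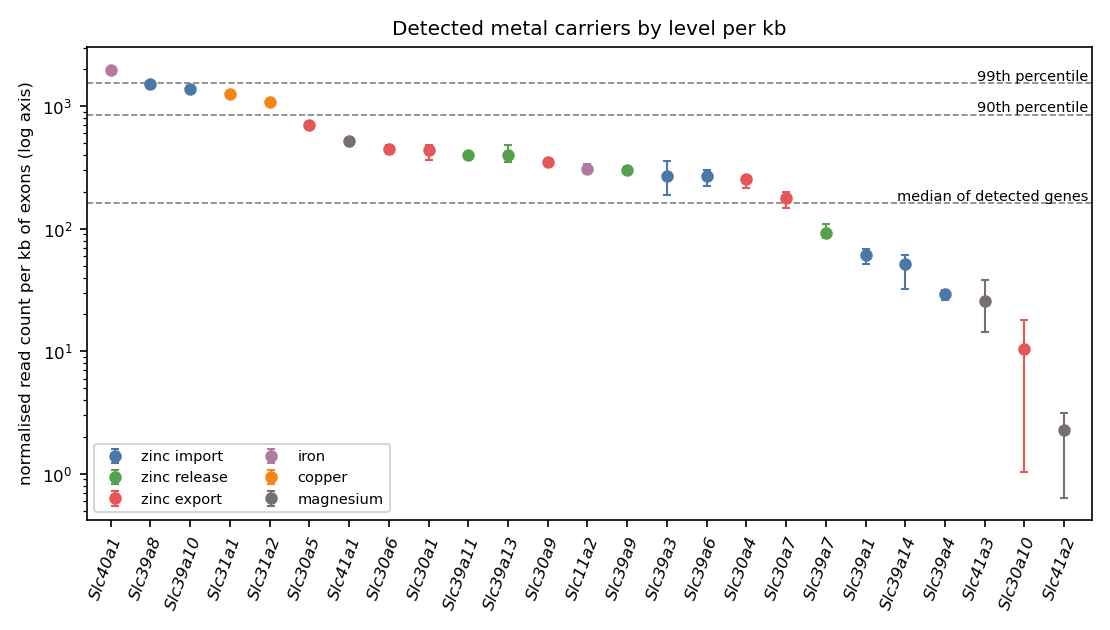
Level per kb of exons (log axis) of the 25 detected carriers in falling order, coloured by role, with points at the mean and bars from the lowest to the highest of the 4 libraries. Dashed lines mark the median (161), the 90th percentile (854) and the 99th percentile (1546) of all detected genes, and Slc40a1 alone among the carriers lies above the highest line.

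In the pairs set side by side above, and in Slc30a4 over Slc30a2 and Slc11a2 over Slc11a1, the libraries of 1 gene all lay above those of the other. This was so in 19 of 19 pairs, with the first gene higher in 15 and the second in 4. Each had an exact two-sided permutation p of 0.0286, the smallest that 70 ways of dividing the values allow. For the 17 pairs of detected genes the p was 0.0321 after Benjamini-Hochberg adjustment over all pairs of detected genes. This test takes the values as independent, although both genes of a pair were measured in the same libraries, and an exact sign-flip test within libraries, which cannot go below p = 0.125 with 4 libraries, called 0 of 19 pairs. This separation was common in the table, since 89.0% of all pairs of detected genes were apart in the same way, and 277 of the 300 pairs of detected carriers (92.3%) were. All 19 pairs stayed apart without library 4.

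**Figure D3:**
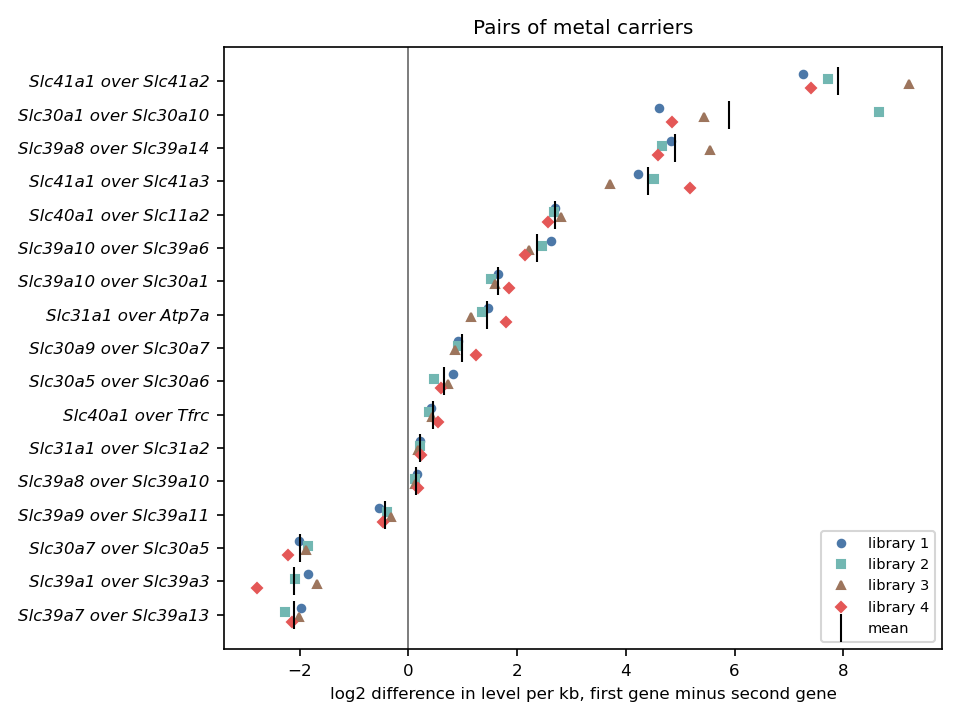
Difference in log2 level per kb, first gene minus second gene, in each library, with the mean as a black bar, for the 17 pairs in which neither gene was listed at 0. Values right of 0 mean that the first gene was higher, and the differences run from 7.90 for Slc41a1 over Slc41a2 to -2.10 for Slc39a7 over Slc39a13.

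Carriers varied between libraries to very different degrees. The median coefficient of variation of the 25 detected carriers was 7.76%, and it reached 67.5% in Slc30a10. Against a trend of the SD of log2 values on their mean, fitted over all detected genes, 2 of 25 carriers had a robust z above 3, against 4.00% of all detected genes. These were Slc30a10, whose SD was 3.86 times the trend, and Slc39a3, whose SD was 3.52 times the trend. Both kept this call without library 4. Without library 2, Slc39a3 alone had it, and without library 3, Slc30a10 alone. With z taken from the log2 of the SD, 0 of 25 carriers had the call, and 0.160% of all detected genes.

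**Figure D4:**
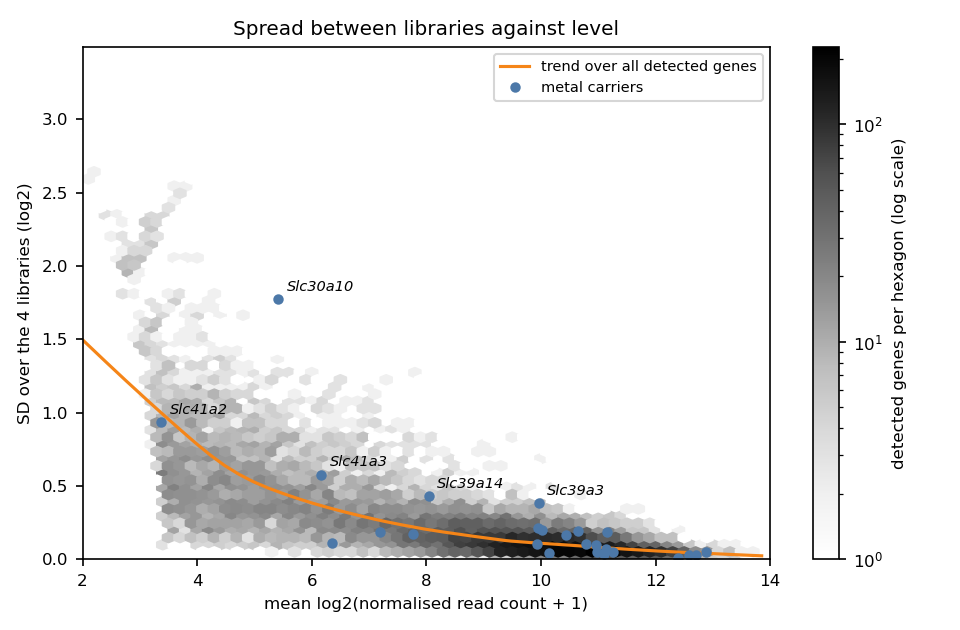
SD over the 4 libraries of log2(normalised read count + 1) against its mean, for all detected genes (grey hexagons, darker where genes are more numerous), with the fitted trend in orange and the 25 detected carriers in blue. The SDs of Slc30a10 and Slc39a3 are 3.86 and 3.52 times the trend, while most carriers lie close to it.

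Library 4 was not a library of generally raised carriers. The highest value stood in library 4 for 6 of 25 detected carriers, against 30.6% of all detected genes, and the lowest for 12 of 25, against 33.0%. The median log2 ratio of library 4 over the mean of libraries 1 to 3 was -0.02 for the carriers and -0.01 for all detected genes. Among carriers it ran from 1.03 in Slc30a10, whose value in library 4 lay between those of libraries 1 and 3 and far above that of library 2, to -0.99 in Slc41a3, and in all detected genes from -0.64 at the 5th percentile to 1.27 at the 95th. Slc39a3 (0.60), Slc39a14 (0.38), Slc39a13 (0.38) and Slc39a7 (0.33) were higher in library 4, and Slc30a7 (-0.36), Slc30a1 (-0.36), Slc30a4 (-0.32) and Slc39a1 (-0.32) were lower.

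The order of the libraries by photoreceptor markers was shared by some carriers, which says nothing of the size of their changes. Slc39a3, Slc39a13, Slc39a14 and Slc41a1 had their libraries in the order of the photoreceptor marker sum (library 3, then 1, 2 and 4), 4 of 25 carriers, against 5.62% of all detected genes. Slc31a2 and Slc41a3 had the opposite order, 2 of 25, against 6.33%. Slc39a3, for one, had 1365 in library 4 with a photoreceptor sum of 13337, against 723 in library 3 with 4567. Slc41a1 differed little, with 2523 in library 4 against 2357 in library 3. The part of RNA from photoreceptors or other cell types in these values was not tested, and these 6 carriers were singled out after their values were seen.

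**Figure D5:**
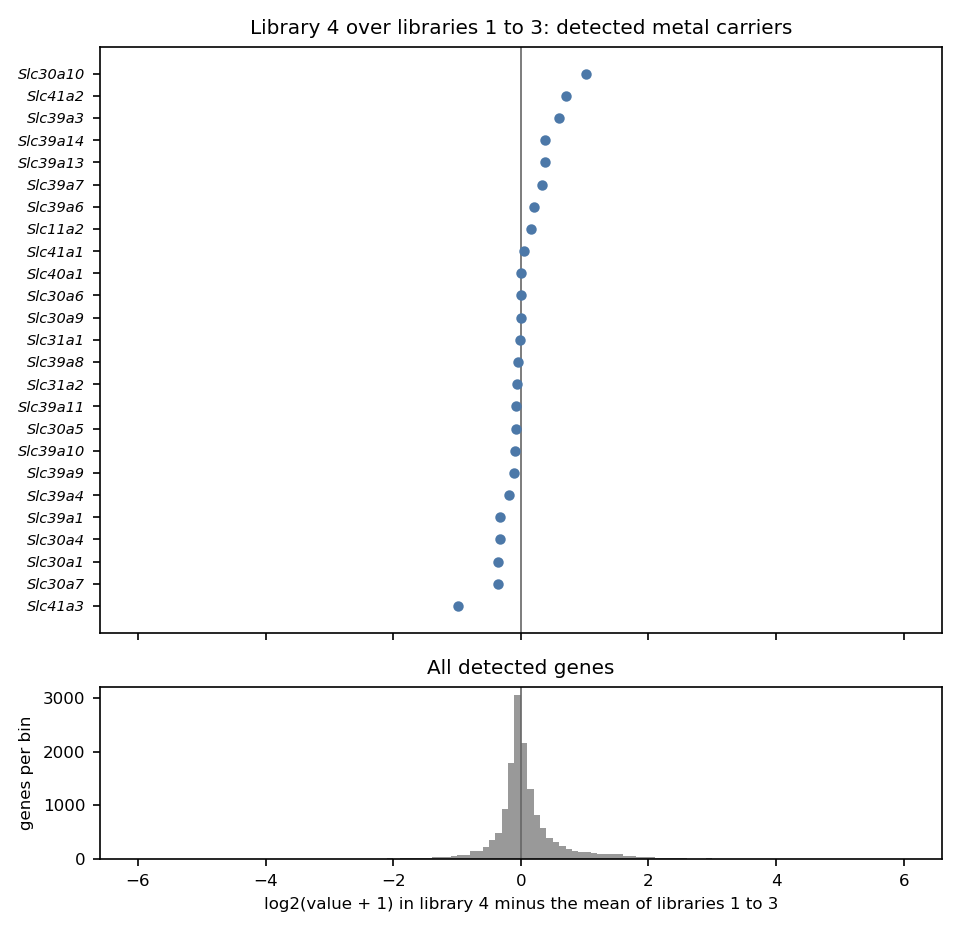
Difference between log2(value + 1) in library 4 and the mean of libraries 1 to 3, for each of the 25 detected carriers (upper panel) and as a histogram over all detected genes (lower panel). Carriers lie between -0.99 and 1.03, with a median of -0.02.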

How the data were processed

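RNA of ECs sorted from P6 mouse retinas was sequenced. The labels give single-end reads from stranded mRNA libraries, but their extract protocol is not written for these cells. The deposited values are a score, normalised read counts per gene that the authors rounded to whole numbers. The normalisation, aligner and annotation of this table are not given in the sources used here: the methods and the extract protocol are written for HUVECs, and the processing notes name FastQC. No count model was used, and the unit makes depth in reads unknown. Of 26834 rows, 26822 genes were kept, and 0 columns of values were left unmapped.

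Exonic length was the union of exons in GENCODE M21 (basic set, GRCm38), in which all 31 carriers have the table's positions. Detection meant a mean of at least 10. Log2 values used a pseudocount of 1. The 19 pairs were compared by exact two-sided permutation tests over the 4 libraries. Variation used a lowess trend (fraction 0.2, 3 iterations) of the SD on the mean, and z was taken from the ratio of SD to trend, a scale chosen after both had been seen. These steps were tested on simulated data. Tools were Python 3.11.15, numpy 2.4.6, pandas 2.3.3, scipy 1.17.1, statsmodels 0.14.6 and matplotlib 3.10.9. Alternatives changed the minimum, pseudocount, length, scaling, z and libraries used. All members were named, and of each further list the 4 genes with the highest means, besides genes of a pair. The other genes named from these lists (Fth1, Ftl1, Hamp, Hephl1, Scara5, Heph, Cp, Mt2, Mt3, Mt4, Atp7b and Tusc3) were chosen after their values were seen. Members, lists and pairs were chosen with earlier results of these data known. Promoters came from RefSeq (GRCm38.p6), with windows for 26 carriers.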

Additional observations from a re-analysis of the deposited data

Results flagged for a closer look

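In 55 values (25 detected carriers, further named genes and the marker sums), the gap of the highest or lowest library to the next was set against the whole range, and 4 exceeded Dixon's 95% critical value for 4 samples. Chance alone gives about 1 in 20, or 2.75 of 55. All 4 were in library 4. Slc39a10 had 7185 in library 4, against 7645 to 7676 in libraries 1 to 3, and Slc30a4 had 1175, against 1447 to 1488. The summed photoreceptor markers came to 13337 in library 4, against 4567 to 5799, and the summed markers of other neurons to 4823, against 3837 to 3928. Of the neuron markers 3 of 8 were detected, and 1 of them, Snap25, had 397, 560, 395 and 1162 in libraries 1 to 4. Whether the marker sums and the carrier values move together for 1 reason was not tested.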

How the results depend on the processing

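The count of detected carriers was 30 at a minimum mean of 1 and 24 at 50, and 24 to 25 without 1 library. The median log2 level per kb of detected carriers, 8.27, was 10.45 with no division by length, 8.52 with the longest transcript, 9.96 with coding length (chosen after seeing the data, as no protein table was given), 8.07 with no filter, and 8.27 to 8.36 without 1 library. Its excess over all detected genes, 0.94, was 1.34 with no division, 1.10 with the longest transcript and 4.41 with no filter on either side, and 0.92 to 1.01 without 1 library. Of 19 pairs, 18 were apart with the longest transcript or coding length. With coding length Slc39a9 over Slc39a11 turned to 0.98, Slc30a7 over Slc30a5 to 0.52 and Slc30a9 over Slc30a7 to -0.26. With no division Slc39a8 over Slc39a10 was -0.29, Slc39a9 over Slc39a11 was 0.82 and Slc40a1 over Tfrc was -0.18. No pair turned or overlapped without 1 library, with a pseudocount of 10 or after median-of-ratios scaling. In a replicate block, an exact sign-flip test within libraries called 0 of 19 pairs, since it cannot go below p = 0.125. Carriers beyond the trend numbered 5 at a z above 2, 0 on the log2 of the SD (added after seeing the data), and 1 to 2 without 1 library. Carriers highest in library 4 numbered 7 after rescaling and 6 to 9 without 1 of the other libraries. With whole numbers and no read depth, carriers with means under 10 cannot be told from absent ones.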
